A study of Rattus norvegicus with 27 samples.

Results

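The genes described here encode matrix and contractile proteins of the connective tissue and vessel walls of the brain: the fibrillar collagen chains Col1a1, Col1a2 and Col3a1, the proteoglycans Dcn and Lum, the adhesive glycoprotein Fn1, and the smooth muscle proteins Acta2, Tagln and Myh11. They were chosen by name, and every array probe that carries one of the names was taken, whatever its level. For 8 of the 9 genes a probe was found, among the 35561 names that the array's probes carry, and Acta2 is not analysed here. The 8 genes have 13 probes (10 for matrix genes and 3 for smooth muscle genes) of the 41012 that are not controls. All 13 probes were well above background on all 27 arrays, except for Lum, which was so on 26, the exception being a striatum of Goto-Kakizaki rats.

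RNA was measured on single-dye microarrays in 3 brain regions (hippocampus, prefrontal cortex and striatum), taken from male rats aged 10 weeks. Goto-Kakizaki rats, a strain that becomes diabetic without treatment and stands for type 2 diabetes, had a mean blood sugar of 13.9 mmol/l. The second group, a model of type 1 diabetes, were Wistar rats given streptozotocin, a toxin of the insulin-producing beta cells, by vein at 65 mg/kg when 6 weeks old, with a mean of 26.34 mmol/l, and only rats whose plasma glucose passed a limit after the injection were kept. Controls were Wistar rats without streptozotocin, at 7.64 mmol/l. Each of the 9 combinations of region and kind of rat had 3 pools of tissue from 3 animals, with 1 array per pool, so that animals within a pool cannot be told apart and strain goes together with diabetes in the Goto-Kakizaki rats. The 3 regions of a kind of rat were dissected from the same animals, so that results in different regions are not independent of each other. How precisely a level is known is limited by there being 3 arrays a group. Markers of the dissected regions stood where the labels place them: the summed signal of 7 striatum markers, in multiples of the array's 75th percentile, was 149 to 242 over the striatum pools, 6.29 to 20.4 over the prefrontal pools and 2.8 to 3.75 over the hippocampal pools, and 6 cortex markers summed to 13.6 to 19.1 in prefrontal cortex, against 6.25 to 11.1 elsewhere.

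Fibroblasts of the meninges, and those that line the larger vessels entering the brain, secrete the fibrillar collagens that give these layers their strength. The small leucine-rich proteoglycans decorin and lumican bind to the collagen fibrils and set their spacing, and fibronectin ties cells to the matrix. Smooth muscle cells of the arterioles contract through smooth muscle actin and myosin. The level of such transcripts in a dissected brain region can depend in part on how much surface membrane and vessel wall came with it. Which cells gave the signal of each gene was not measured. The labels name brain regions only, and none of the tissue was labelled as meninges.

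The sequences below are those of the spotted probes, printed because each value stands for RNA that bound these 60 bases and because several of the proteins belong to families. Capitals mark the longest run of bases that a probe shares with the probe of a related gene, and probes printed in lower case throughout are shown unmarked.
Dcn (A_42_P647599): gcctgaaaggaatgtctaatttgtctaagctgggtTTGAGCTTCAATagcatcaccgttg
Lum (A_44_P458627): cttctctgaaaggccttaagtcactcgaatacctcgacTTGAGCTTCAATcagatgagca
Col1a1 (A_44_P350521): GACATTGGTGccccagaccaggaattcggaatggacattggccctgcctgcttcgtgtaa
Col1a1 (A_44_P419137): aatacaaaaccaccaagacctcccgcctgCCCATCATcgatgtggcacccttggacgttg
Col3a1 (A_44_P146518): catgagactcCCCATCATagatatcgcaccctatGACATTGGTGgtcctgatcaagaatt
Col1a2 (A_44_P458851): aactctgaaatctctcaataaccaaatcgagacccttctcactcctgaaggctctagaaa
Fn1 (A_44_P210568): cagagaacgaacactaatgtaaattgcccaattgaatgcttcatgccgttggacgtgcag
Tagln (A_44_P360772): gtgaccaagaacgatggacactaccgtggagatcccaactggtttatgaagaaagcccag
Myh11 (A_44_P274021): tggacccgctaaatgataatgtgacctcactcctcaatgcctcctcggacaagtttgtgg
Myh11 (A_44_P489468): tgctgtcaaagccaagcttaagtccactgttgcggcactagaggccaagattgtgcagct
The probes of the proteoglycans Dcn and Lum share a run of 12 bases. Col1a1 A_44_P350521 and the Col3a1 probe share 10 bases, and Col1a1 A_44_P419137 and the Col3a1 probe share 8, a length that probes of unrelated genes among the 13 also share. Col1a1, Col1a2, Fn1 and Myh11 have more than 1 probe each, and levels are compared between groups for a given probe, not between probes.

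Values are log2 of the processed signal relative to the 75th percentile of the array, so that 0 is the signal at that percentile, and pools are given in the order of their numbers. A probe is called changed at an adjusted p under 0.05 in limma (Benjamini-Hochberg over all probes tested) together with a change of at least 2-fold. The arrays lay on 7 slides in 2 sets that shared no group: slides 1 to 3 held the hippocampus of Goto-Kakizaki and control rats, the prefrontal cortex of Goto-Kakizaki rats and the striatum of streptozotocin rats, and slides 4 to 7 held the other 5 groups. Goto-Kakizaki and control rats can therefore be compared within a set in hippocampus and striatum, streptozotocin and control rats in prefrontal cortex, and control striatum and control prefrontal cortex with each other. In the remaining comparisons the slide set and the group cannot be told apart.

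Fibronectin was lower in the Goto-Kakizaki rats in all 3 regions. The glycoprotein, which cells and blood plasma both supply to the matrix, was measured by 2 probes. With A_44_P210568, hippocampal pools had 0.29, 0.12 and 0.09 in Goto-Kakizaki rats, 0.55, 0.22 and 0.44 in streptozotocin rats, and 0.99, 1.28 and 1.11 in controls. In prefrontal cortex the pools stood at 0.89, 0.52 and 0.89 in Goto-Kakizaki rats, 1.10, 0.79 and 1.20 in streptozotocin rats, and 1.57, 1.65 and 1.60 in controls. Striatum had 1.03, 1.11 and 1.01 in Goto-Kakizaki rats, 1.13, 1.12 and 1.74 in streptozotocin rats, and 1.76, 1.65 and 1.68 in controls. Every Goto-Kakizaki pool lay below every control pool of its region, and so did the streptozotocin pools except pool 3 of the striatum. The differences of Goto-Kakizaki from control rats were -0.96 in hippocampus (adjusted p = 0.00025), -0.84 in prefrontal cortex (adjusted p = 0.0008) and -0.65 in striatum (adjusted p = 0.0064, SE 0.15 in each). All 3 passed the adjusted p but stayed under 2-fold. By the adjusted p alone, 2 of the 13 probes were lower in Goto-Kakizaki hippocampus (2.77% of all probes), 3 in prefrontal cortex (4.53%) and 2 in striatum (7.35%).

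The probe A_44_P681660 gave hippocampal values of 1.47, 1.15 and 1.05 in Goto-Kakizaki rats, 1.82, 1.85 and 1.65 in streptozotocin rats, and 1.94, 1.98 and 1.85 in controls. Its prefrontal values were 1.88, 1.50 and 1.80 in Goto-Kakizaki rats, 2.37, 2.29 and 2.52 in streptozotocin rats, and 2.57, 3.08 and 2.90 in controls. In striatum it stood at 2.22, 2.56 and 2.00 in Goto-Kakizaki rats, 2.09, 2.17 and 2.45 in streptozotocin rats, and 2.70, 3.20 and 2.70 in controls. Again no Goto-Kakizaki pool reached the lowest control pool of its region. The Fn1 probes were the 2 of 13 that were lower without overlap in striatum (11.2% of all probes), and 5 were so in hippocampus (26.5%) and 4 in prefrontal cortex (13.6%). The prefrontal difference of -1.12 (SE 0.17, 95% interval -1.47 to -0.77, adjusted p = 0.00013) was 2.18-fold and was called, and those in hippocampus (-0.70, adjusted p = 0.015) and striatum (-0.60, adjusted p = 0.021) passed the adjusted p alone.

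Among the 29366 probes tested in all 3 regions, which share animals, 393 (1.34%) were lower at adjusted p under 0.05 in Goto-Kakizaki rats in every region, and both Fn1 probes were among them. The differences in hippocampus and striatum were measured within a slide set. The prefrontal difference, which A_44_P681660 had past both thresholds, lay across the sets, so that slide set and strain cannot be told apart. With the slide as a fixed block, a setting added after the data were seen, A_44_P210568 kept its difference in hippocampus (-0.97, adjusted p = 0.005) and had -0.70 in striatum with adjusted p = 0.14, and A_44_P681660 had -0.62 (adjusted p = 0.13) and -0.44 (adjusted p = 0.57). The 3 Goto-Kakizaki striatum arrays shared slide 4 with 1 control striatum array.

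In streptozotocin rats 3 of the 6 Fn1 comparisons with controls passed the adjusted p, all on the lower side and under 2-fold. With A_44_P210568 the differences from controls were -0.72 in hippocampus (adjusted p = 0.01), -0.58 in prefrontal cortex (adjusted p = 0.041) and -0.37 in striatum (adjusted p = 0.2). With A_44_P681660 they were -0.15 (adjusted p = 0.79), -0.46 (adjusted p = 0.16) and -0.62 (adjusted p = 0.046). By the adjusted p alone 2 of the 13 probes were lower in streptozotocin hippocampus (1.08% of all probes), 1 in prefrontal cortex (1.64%) and 1 in striatum (1.49%). No Fn1 probe passed in all 3 regions, as 0.194% of all probes did in that direction. Goto-Kakizaki against streptozotocin rats, the test of the difference between the models, gave -0.55 (adjusted p = 0.047), -0.66 (adjusted p = 0.01) and 0.02 (adjusted p = 0.94) for A_44_P681660 in hippocampus, prefrontal cortex and striatum, and -0.23 (adjusted p = 0.4), -0.26 (adjusted p = 0.26) and -0.28 (adjusted p = 0.19) for A_44_P210568. Probe A_44_P681660 was the single probe of 13 lower by the adjusted p alone in hippocampus (4.66% of all probes) and in prefrontal cortex (8.41%). Marker genes of blood stood higher in Goto-Kakizaki than in control rats in hippocampus and striatum. Of 6 such genes 4 had a probe, all above background. Their summed level was 74.5 to 90.4 times the array's 75th percentile in Goto-Kakizaki hippocampus, against 55.7 to 60.6 in controls. In Goto-Kakizaki prefrontal cortex it was 70.2 to 114, against 56.7 to 93.8 in controls, and in Goto-Kakizaki striatum 104 to 143, against 70.9 to 103 in controls. Oligodendrocyte markers, 6 of 6 with a probe, summed to 199 to 220 in Goto-Kakizaki hippocampus, against 240 to 262 in controls, to 93.5 to 114 in Goto-Kakizaki prefrontal cortex, against 126 to 157 in controls, and to 322 to 381 in Goto-Kakizaki striatum, against 377 to 406 in controls. Microglia and macrophage markers, 10 of 10 with a probe, summed to 40.1 to 42.2 in Goto-Kakizaki hippocampus, against 30.1 to 39.6 in controls, to 54.2 to 65.6 in Goto-Kakizaki prefrontal cortex, against 39 to 45.5 in controls, and to 58.1 to 101 in Goto-Kakizaki striatum, against 42.1 to 48.6 in controls. Of the oligodendrocyte markers limma called Mobp alone in Goto-Kakizaki against control rats, lower in all 3 regions (-1.56, -1.27 and -1.13). Of the microglia and macrophage markers it called Itgam lower in hippocampus (-1.71, adjusted p = 0.016), against the direction of their sum. It called Cd68 higher in striatum (1.08, adjusted p = 0.0028). The part of these cell types and of blood in the Fn1 difference was not tested.

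**Figure D1:**
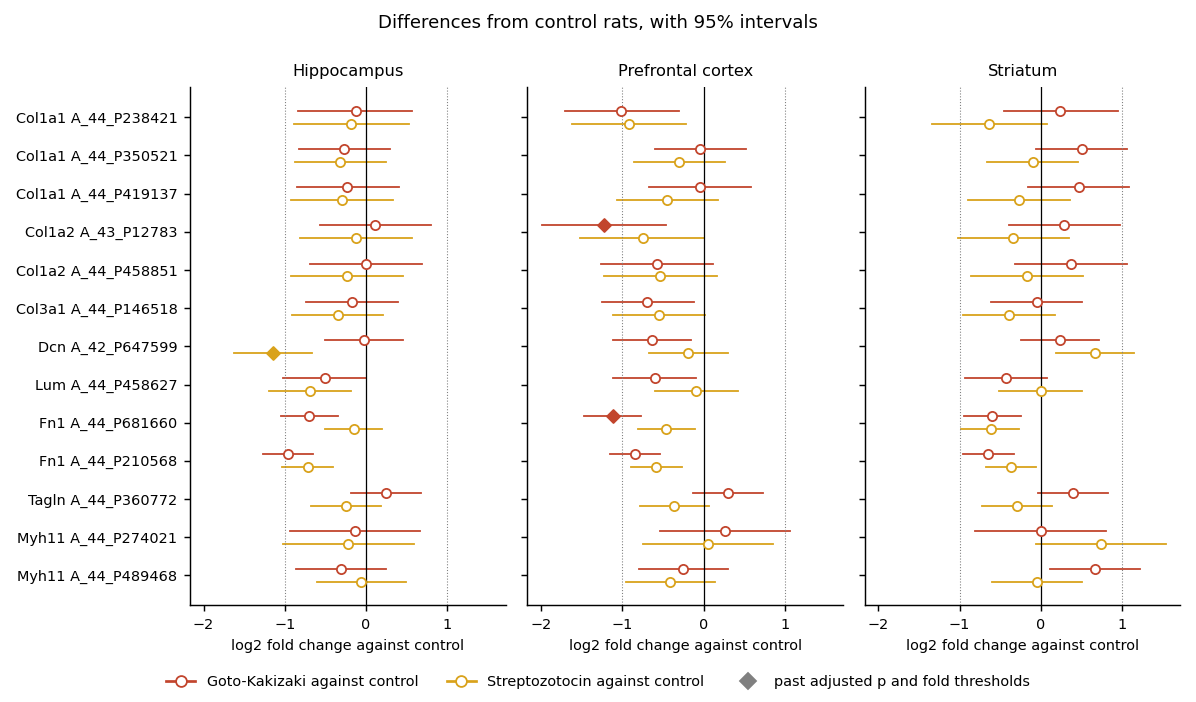
The log2 fold change of the 13 probes against control rats (x axis) with 95% intervals, for Goto-Kakizaki rats (red) and streptozotocin rats (yellow) in each region, filled diamonds being changes past both thresholds. Both Fn1 probes lie below 0 in Goto-Kakizaki rats in all 3 regions, and Dcn lies below -1 in the streptozotocin hippocampus.

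Collagen type I is built from the Col1a1 and Col1a2 chains and collagen type III from Col3a1, and 4 of their 6 probes were higher in prefrontal cortex than in hippocampus in every kind of rat with no overlap of pools. Col1a1 (A_44_P238421) had prefrontal values of 1.26, 0.72 and 2.05 in Goto-Kakizaki rats, 1.45, 1.41 and 1.43 in streptozotocin rats, and 1.80, 1.91 and 3.33 in controls. Its hippocampal pools stood at 0.23, 0.48 and 0.03 in Goto-Kakizaki rats, 0.25, 0.28 and 0.06 in streptozotocin rats, and 0.15, 0.67 and 0.32 in controls. In striatum the values were 0.57, 1.37 and 0.77 in Goto-Kakizaki rats, -0.16, -0.27 and 0.50 in streptozotocin rats, and 0.43, 0.95 and 0.60 in controls. Prefrontal pools of each kind of rat were all above the hippocampal pools, and they overlapped with the striatum in Goto-Kakizaki rats only. Since this is bulk tissue, more cells of a type and more RNA per cell cannot be told apart, here and in all that follows.

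Col1a2 (A_43_P12783) gave prefrontal values of 1.69, 0.96 and 2.60 in Goto-Kakizaki rats, 2.19, 2.13 and 2.36 in streptozotocin rats, and 2.60 and 3.36 in control pools 2 and 3, the spot of control pool 1 being left out as an outlier. Its hippocampus had 0.68, 0.85 and 0.48 in Goto-Kakizaki rats, 0.28, 0.66 and 0.36 in streptozotocin rats, and 0.12, 0.92 and 0.62 in controls. Striatum had 0.88, 1.77 and 1.09 in Goto-Kakizaki rats, 0.61, 0.31 and 0.94 in streptozotocin rats, and 0.74, 1.36 and 0.77 in controls. The prefrontal cortex again stood above the hippocampus in every kind of rat with no overlap.

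The other Col1a2 probe, A_44_P458851, had prefrontal values of -1.24, -1.88 and -0.39 in Goto-Kakizaki rats, -1.24, -1.19 and -0.97 in streptozotocin rats, and -0.83, -1.09 and 0.10 in controls. In hippocampus and striatum together its pools ran between -3.01 and -1.61, none as high as the median of the prefrontal pools. In prefrontal cortex Col3a1 had -0.00, -0.82 and 0.70 in Goto-Kakizaki rats, 0.10, 0.01 and 0.19 in streptozotocin rats, and 0.22, 0.79 and 0.92 in controls. Its hippocampus was lower, with -1.37, -1.45 and -1.62 in Goto-Kakizaki rats, -1.68, -1.52 and -1.78 in streptozotocin rats, and -1.55, -1.14 and -1.25 in controls. Striatal Col3a1 lay between, at -0.84, -0.41 and -0.65 in Goto-Kakizaki rats, -0.96, -1.35 and -0.61 in streptozotocin rats, and -0.73, -0.26 and -0.75 in controls.

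**Figure D2:**
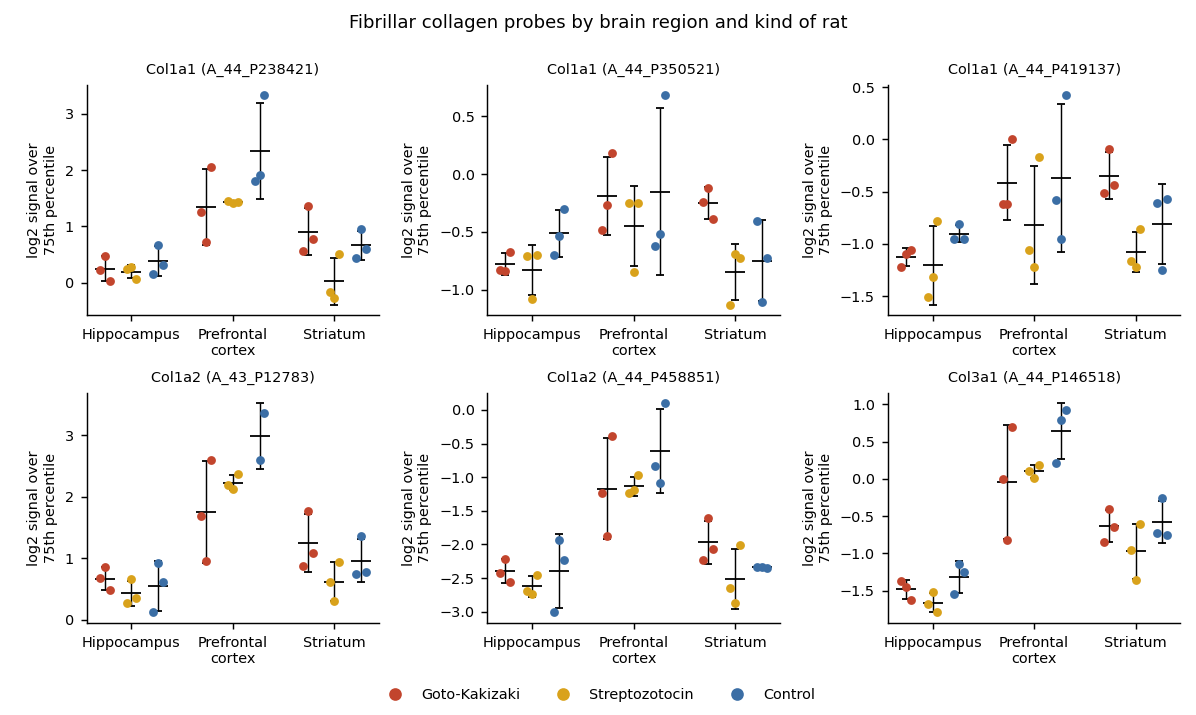
The 6 collagen probes, with log2 signal over the array's 75th percentile on the y axis of each panel and the 3 regions on the x axis, for Goto-Kakizaki (red), streptozotocin (yellow) and control rats (blue). Points are pools, bars the mean and SD. In 4 panels the prefrontal cortex stands above the hippocampus in every kind of rat, and the control pool 3 of the prefrontal cortex is the highest of its group in all 6.

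Between the regions of control rats, 4 of the 13 probes were called higher in prefrontal cortex than in hippocampus, where 2.68% of all probes were. They were Col1a2 A_43_P12783 at 2.42 (5.37-fold, SE 0.37, adjusted p = 6.4e-05), Col1a1 A_44_P238421 at 1.97 (3.91-fold, SE 0.34, adjusted p = 0.00024), Col3a1 at 1.96 (3.88-fold, SE 0.27, adjusted p = 1.8e-05) and Col1a2 A_44_P458851 at 1.79 (3.46-fold, SE 0.33, adjusted p = 0.00048). The control hippocampus and prefrontal cortex lay on different slide sets. Within a set, the prefrontal minus hippocampal differences of these probes were 1.08 to 1.44 in Goto-Kakizaki rats and 1.23 to 1.79 in streptozotocin rats, with no overlap of pools. Of the 13 probes, 9 were higher without overlap in the Goto-Kakizaki prefrontal cortex (28.2% of all probes tested) and 6 in that of the streptozotocin rats (20.6%).

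The same 4 probes were called lower in the striatum than in the prefrontal cortex of control rats, both on slides 4 to 7, where 4.83% of all probes were called lower. The differences were -2.02 for Col1a2 A_43_P12783 (adjusted p = 0.00028), -1.73 for Col1a2 A_44_P458851 (adjusted p = 0.00042), -1.69 for Col1a1 A_44_P238421 (adjusted p = 0.00071) and -1.23 for Col3a1 (adjusted p = 0.0017). With the slide as a fixed block all 4 stayed past both thresholds, from -1.91 to -1.23. Without slides 4 and 6, which hold control pool 3 of the prefrontal cortex and 2 of the control striatum arrays, Col1a2 A_43_P12783 had -1.24 (adjusted p = 0.12), Col1a1 -0.91 (adjusted p = 0.11) and Col3a1 -0.77 (adjusted p = 0.21), and Col1a2 A_44_P458851 -1.37 (adjusted p = 0.048). This leaves 1 control striatum pool, taken to vary as much as the remaining groups do.

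The 2 remaining Col1a1 probes showed a smaller difference between regions that was not called. In prefrontal cortex A_44_P350521 had -0.48, -0.27 and 0.18 in Goto-Kakizaki rats, -0.25, -0.85 and -0.25 in streptozotocin rats, and -0.62, -0.52 and 0.68 in controls, against -0.70, -0.54 and -0.30 in the control hippocampus. Probe A_44_P419137 had prefrontal values of -0.62, -0.62 and 0.00 in Goto-Kakizaki rats, -1.06, -1.22 and -0.17 in streptozotocin rats, and -0.58, -0.95 and 0.42 in controls, against -0.95, -0.81 and -0.95 in the control hippocampus. Their prefrontal minus hippocampal differences in controls were 0.36 (95% interval -0.20 to 0.92, adjusted p = 0.44) and 0.53 (95% interval -0.09 to 1.16, adjusted p = 0.28), and the control pools overlapped. In Goto-Kakizaki rats, within a slide set, prefrontal pools stood above hippocampal pools by 0.59 and 0.72 with no overlap, and in streptozotocin rats by 0.38 and 0.39 with overlap. In striatum A_44_P350521 ran between -0.39 and -0.12 in Goto-Kakizaki rats, -1.13 and -0.69 in streptozotocin rats, and -1.11 and -0.41 in controls. Over the 27 pools these 2 probes correlated at 0.84 with each other and at 0.70 and 0.68 with Col1a1 A_44_P238421, and the 3 probes of the gene disagree on the size of its difference between regions.

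Against controls, 1 of the 6 collagen probes was called in Goto-Kakizaki prefrontal cortex, on the lower side, and none in that of streptozotocin rats. Goto-Kakizaki rats differed by -1.23 for Col1a2 A_43_P12783 (SE 0.37, adjusted p = 0.04, pools overlapping), by -1.01 for Col1a1 A_44_P238421 (SE 0.34, adjusted p = 0.071), by -0.69 for Col3a1 (SE 0.27, adjusted p = 0.13) and by -0.57 for Col1a2 A_44_P458851 (SE 0.33, adjusted p = 0.35). The other 2 Col1a1 probes, A_44_P350521 and A_44_P419137, each differed by -0.04 (adjusted p = 0.96 for both). This call rested on single pools: without pool 2 of the Goto-Kakizaki rats Col1a2 had -0.83 (adjusted p = 0.19), without pool 3 of the controls -0.85 (adjusted p = 0.34), and without pool 1 of the Goto-Kakizaki rats -1.20 (adjusted p = 0.072). With Fn1 A_44_P681660 it made 2 of 13 probes called lower in the Goto-Kakizaki prefrontal cortex, where 1.75% of all probes were called lower. No probe of the 13 was called in the Goto-Kakizaki hippocampus (1.92% of all probes called in either direction) or striatum (3.09%) by limma, with 3 at an unadjusted p under 0.05 in each. For none of the 13 did limma call a regional difference in the Goto-Kakizaki effect, where 0.361% (hippocampus against striatum), 0.181% (hippocampus against prefrontal cortex) and 0.129% (prefrontal cortex against striatum) of all probes were called, and 1, 1 and 5 members had an unadjusted p under 0.05. Compared with the effect in striatum, that in hippocampus had a median difference of -0.26 over the 13 probes (all probes -0.06). For prefrontal cortex the median was -0.54 (all probes -0.01). Several collagen probes ran closely together over the pools, so that the 13 probes are not separate results. With array weights, which ran from 0.0862 to 9.11, 2 of the 13 were called between hippocampus and prefrontal cortex and 2 between prefrontal cortex and striatum. The share of all probes called with array weights is not given here, so these counts are not read as a result about the 13 probes.

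In streptozotocin rats the prefrontal differences were -0.92 for Col1a1 A_44_P238421 (adjusted p = 0.17), -0.75 for Col1a2 A_43_P12783 (adjusted p = 0.34), -0.55 for Col3a1 (adjusted p = 0.35), -0.53 for Col1a2 A_44_P458851 (adjusted p = 0.49), -0.45 for Col1a1 A_44_P419137 (adjusted p = 0.54) and -0.30 for Col1a1 A_44_P350521 (adjusted p = 0.69). None was called by limma, and 3 of the 13 had an unadjusted p under 0.05. The streptozotocin pools of Col1a1 A_44_P238421 and Col3a1 lay below all 3 control pools, while those of Col1a1 A_44_P350521 and A_44_P419137 overlapped with the controls. Each streptozotocin pool shared a slide with 1 control pool, and within slides 5, 6 and 7 the differences of Col1a1 A_44_P238421 were -0.50, -1.90 and -0.35, a comparison added after the data were seen. Col1a1 A_44_P419137, Col1a2 A_44_P458851, Col3a1, both Fn1 probes and Tagln were also lower in the streptozotocin pool of all 3 slides. Over the 13 probes, 5 were lower without overlap here (12.2% of all probes), and the median difference was -0.45, against 0.01 over all probes tested. In Goto-Kakizaki prefrontal cortex 4 were lower without overlap (13.6%), with a median of -0.60, against 0.01 over all probes. The 7 striatum markers summed to 9.82, 11.6 and 10.9 in Goto-Kakizaki prefrontal cortex, 8.2, 7.91 and 9.07 in that of streptozotocin rats, and 14.2, 6.29 and 20.4 in controls, with the highest sum in control pool 3, the highest of its group for all 6 collagen probes. The part of neighbouring tissue in the collagen differences was not tested. In striatum the medians were 0.24 in Goto-Kakizaki rats (all probes 0.02) and -0.27 in streptozotocin rats (all probes -0.03).

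Other fibroblast and leptomeningeal genes, 29 of 30 with a probe, varied between prefrontal pools as well. Their summed signal, in multiples of the array's 75th percentile, was 78.3, 55.3 and 144 in Goto-Kakizaki rats, 98.9, 96.7 and 112 in streptozotocin rats, and 97.7, 121 and 153 in controls. The pools with the lowest and the highest sum among the Goto-Kakizaki pools, 2 and 3, were also those with the lowest and the highest Col1a2 value. Col14a1 was above background on no array of any of the 3 prefrontal groups. Marker genes of the neighbouring striatum, all 7 with a probe, summed to 9.82 to 11.6 in Goto-Kakizaki, 7.91 to 9.07 in streptozotocin and 6.29 to 20.4 in control prefrontal cortex, against 149 to 242 in the striatum groups. The part of the amount of membrane or of dissection in the collagen differences was not tested.

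By gene, 8 of 27 tested genes of this list were called higher in the prefrontal cortex than in the hippocampus of control rats (2.68% of all probes) and 1 lower (2.46%). The median difference was 0.81, against 0.02 over all probes, and the 2 groups lay on different slide sets. Among the 8, Postn, Slc22a6 and Cdh1 were dim, with hippocampal means of -5.24, -5.18 and -4.14. The retinoic acid enzyme Aldh1a2 was higher by 2.29 (adjusted p = 7.8e-05), the small proteoglycan Ogn by 1.50 (adjusted p = 0.0041), the dicarboxylate carrier Slc13a3 by 1.31 (adjusted p = 0.00038) and the GABA carrier Slc6a13 by 1.27 (adjusted p = 0.0013). Fbn1, the main protein of microfibrils, was lower (-1.46, adjusted p = 2.7e-07). Several of these genes lie outside the rule for named genes and were picked after their values were seen.

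In Goto-Kakizaki against control rats 2 of 27 genes of the list tested were called in prefrontal cortex, both lower (1.75% of all probes). Col6a1, a chain of the beaded collagen type VI, had -1.84, -1.83 and -1.36 in Goto-Kakizaki rats, 0.36, 0.57 and 0.16 in streptozotocin rats, and -0.29, -0.15 and 0.02 in controls, a Goto-Kakizaki difference of -1.54 (adjusted p = 6.6e-05). It was lower in hippocampus too, with -2.02, -2.14 and -1.97 in Goto-Kakizaki rats, -0.63, -1.55 and -0.95 in streptozotocin rats, and -1.22, -1.14 and -0.57 in controls (adjusted p = 0.0039). Ogn was lower in prefrontal cortex (-1.25, adjusted p = 0.028). In streptozotocin rats none of the list was called by limma, with 3, 4 and 2 genes at an unadjusted p under 0.05 in hippocampus, prefrontal cortex and striatum.

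Among 18 genes of collagen synthesis and crosslinking, 0 were called in either model in any region by limma, with 2 to 5 at an unadjusted p under 0.05 in each comparison. In control rats P4ha3, a subunit of the prolyl hydroxylase that stabilises the collagen helix, was higher by 2.71 in the prefrontal cortex than in the hippocampus (adjusted p = 1.4e-08), and Pcolce, which speeds the trimming of procollagen, by 1.00 (adjusted p = 0.0038). P4ha3 was lower in the striatum than in the prefrontal cortex (-1.97, adjusted p = 4.7e-07). Of the other lists, 13 genes of matrix breakdown, 13 matrix receptors and 15 TGF-beta signalling genes had a probe. The metalloproteinase Mmp11 was the single one of these genes called against controls. It was higher in the Goto-Kakizaki prefrontal cortex (1.09, adjusted p = 0.011) and striatum (1.36, adjusted p = 0.0015). Over all probes, 2.49% and 3.09% were called in either direction in these comparisons. Mmp11 was dim, with prefrontal means of -4.51 in Goto-Kakizaki rats and -5.60 in controls. In striatum its pools ran between -3.96 and -3.18 in Goto-Kakizaki rats, and between -5.04 and -4.93 in controls. In Goto-Kakizaki prefrontal cortex Sdc1, a membrane proteoglycan that binds fibronectin and collagen, was called lower than in streptozotocin rats (-1.21, adjusted p = 0.00013) and stood at the 2-fold limit against controls (-1.00, adjusted p = 0.0012). Ctgf, a matrix protein induced by TGF-beta, was called lower there than in streptozotocin rats (-1.08, adjusted p = 0.0036). Between regions of control rats the latent TGF-beta binding protein Ltbp1 was higher in prefrontal cortex than in hippocampus (1.15, adjusted p = 0.00069), the collagen receptor Ddr1 was lower (-1.00, adjusted p = 0.0085), and the ligand Tgfb3 was lower in striatum than in hippocampus (-1.35, adjusted p = 1.8e-06).

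Decorin, which binds collagen fibrils and several growth factors, had another regional order than the collagens and differed in the streptozotocin hippocampus. There Dcn stood at 1.64, 1.31 and 1.64 in Goto-Kakizaki rats, 0.47, 0.36 and 0.40 in streptozotocin rats, and 0.91, 1.93 and 1.82 in controls. The prefrontal values were 0.22, -0.11 and 0.40 in Goto-Kakizaki rats, 0.64, 0.31 and 0.90 in streptozotocin rats, and 0.69, 0.88 and 0.85 in controls. In striatum the pools had 0.12, -0.46 and 0.45 in Goto-Kakizaki rats, 0.24, 0.56 and 0.62 in streptozotocin rats, and -0.14, -0.17 and -0.28 in controls. The streptozotocin pools were all below the control pools in hippocampus, where 6 of the 13 probes were lower without overlap (13.6% of all probes). In striatum they were all above the control pools, as the single probe of the 13 higher without overlap (11.5%).

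In hippocampus the streptozotocin rats differed from controls by -1.14 (2.21-fold lower, SE 0.23, 95% interval -1.63 to -0.66, adjusted p = 0.0092), the single called probe of the 13 where 0.248% of all probes were called lower. It was not called without control pool 2 (-0.96, adjusted p = 0.078) or control pool 3 (-1.01, adjusted p = 0.07). Goto-Kakizaki rats were 2.18-fold higher than streptozotocin rats (1.12, SE 0.23, adjusted p = 0.0034), the single called probe where 1.16% were called higher, and differed from controls by -0.02 (adjusted p = 0.98). In striatum the streptozotocin difference was 0.67 (adjusted p = 0.13) and in prefrontal cortex -0.19 (adjusted p = 0.81). No probe of the 13 was called by limma in these 2 regions, where 0.866% and 0.98% of all probes were, with 3 at an unadjusted p under 0.05 in each.

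The streptozotocin effect on Dcn itself differed between hippocampus and striatum, by -1.81 (SE 0.33, 95% interval -2.50 to -1.13, adjusted p = 0.01), where 0.769% of all probes were called for such a difference. In both regions the streptozotocin and control groups lay on different slide sets, and in opposite order: the hippocampus of streptozotocin rats was on slides 4 to 7 and that of controls on slides 1 to 3, and the striatum of streptozotocin rats was on slides 1 to 3 and that of controls on slides 4 to 7. Slide set and treatment therefore cannot be told apart for either effect, and the slide sets enter their difference through both regions. The effects that lay within a set, streptozotocin in prefrontal cortex and Goto-Kakizaki in hippocampus and striatum, were -0.19, -0.02 and 0.23 for Dcn. Differences of the streptozotocin effect between prefrontal cortex and the other regions were called for 0 of all probes by limma (0%), with 2156 (hippocampus) and 2686 (striatum) at an unadjusted p under 0.05.

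Striatal Dcn was below hippocampal Dcn by -1.75 in controls (3.37-fold lower, SE 0.23, adjusted p = 5.9e-06) and by -1.49 in Goto-Kakizaki rats, while in streptozotocin rats it differed by 0.06 with overlapping pools. Striatum lay on slides 4 to 7 and hippocampus on slides 1 to 3 in both of those groups, and the other way round in streptozotocin rats. Within a slide set, control striatum was below control prefrontal cortex by -1.00 (adjusted p = 0.0027), just under 2-fold, and the Goto-Kakizaki prefrontal cortex was below the Goto-Kakizaki hippocampus by -1.36 with no overlap. In streptozotocin rats the prefrontal cortex and hippocampus, both on slides 4 to 7, differed by 0.21 with overlapping pools.

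Choroid plexus, a source of transcripts that lies beside the hippocampus, was unevenly present. The summed signal of its 10 marker genes, all with a probe, was 162, 21.8 and 112 in Goto-Kakizaki hippocampus, 3.51, 4.07 and 3.51 in that of streptozotocin rats, and 3.01, 3.24 and 129 in controls. Kl, Prlr and Slc4a5 were above background on no streptozotocin hippocampus array. Control pool 2, with a sum of 3.24, had the highest Dcn level of the hippocampus at 1.93, control pool 3, with 129, had 1.82, and control pool 1, with 3.01, had 0.91. The part of choroid plexus tissue in the Dcn differences was not tested.

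Lumican, the second proteoglycan of the fibril surface, gave the dimmest signal among the probes. Hippocampal Lum had -3.24, -3.57 and -3.62 in Goto-Kakizaki rats, -3.63, -3.49 and -3.84 in streptozotocin rats, and -3.09, -2.87 and -2.93 in controls. Prefrontal Lum had -3.65, -4.27 and -4.06 in Goto-Kakizaki rats, -3.60, -3.54 and -3.31 in streptozotocin rats, and -3.51, -3.26 and -3.41 in controls. In striatum it stood at -4.16, -5.29 and -3.88 in Goto-Kakizaki rats, -4.26, -3.92 and -3.86 in streptozotocin rats, and -3.86, -4.23 and -3.95 in controls. Pools of the diabetic models lay below all controls in hippocampus, and those of Goto-Kakizaki rats also in prefrontal cortex, but no difference passed (hippocampus -0.51, adjusted p = 0.32 in Goto-Kakizaki rats and -0.69, adjusted p = 0.16 in streptozotocin rats, and prefrontal cortex -0.60, adjusted p = 0.14 in Goto-Kakizaki rats).

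Between regions of control rats, Lum was called lower in the striatum than in the hippocampus (-1.05, SE 0.25, adjusted p = 0.0025), on different slide sets. With Dcn it made 2 of 13 probes called lower there, where 4.82% of all probes were. With the normexp background correction the Lum difference was 0.15 (adjusted p = 0.8), but that setting also moved the median of all probes in this comparison to 0.40, against 0.03, so that Lum stayed below the median of all probes. Over the 27 pools Lum and Dcn correlated at 0.79, and at 0.66 after each group's mean was taken off.

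**Figure D3:**
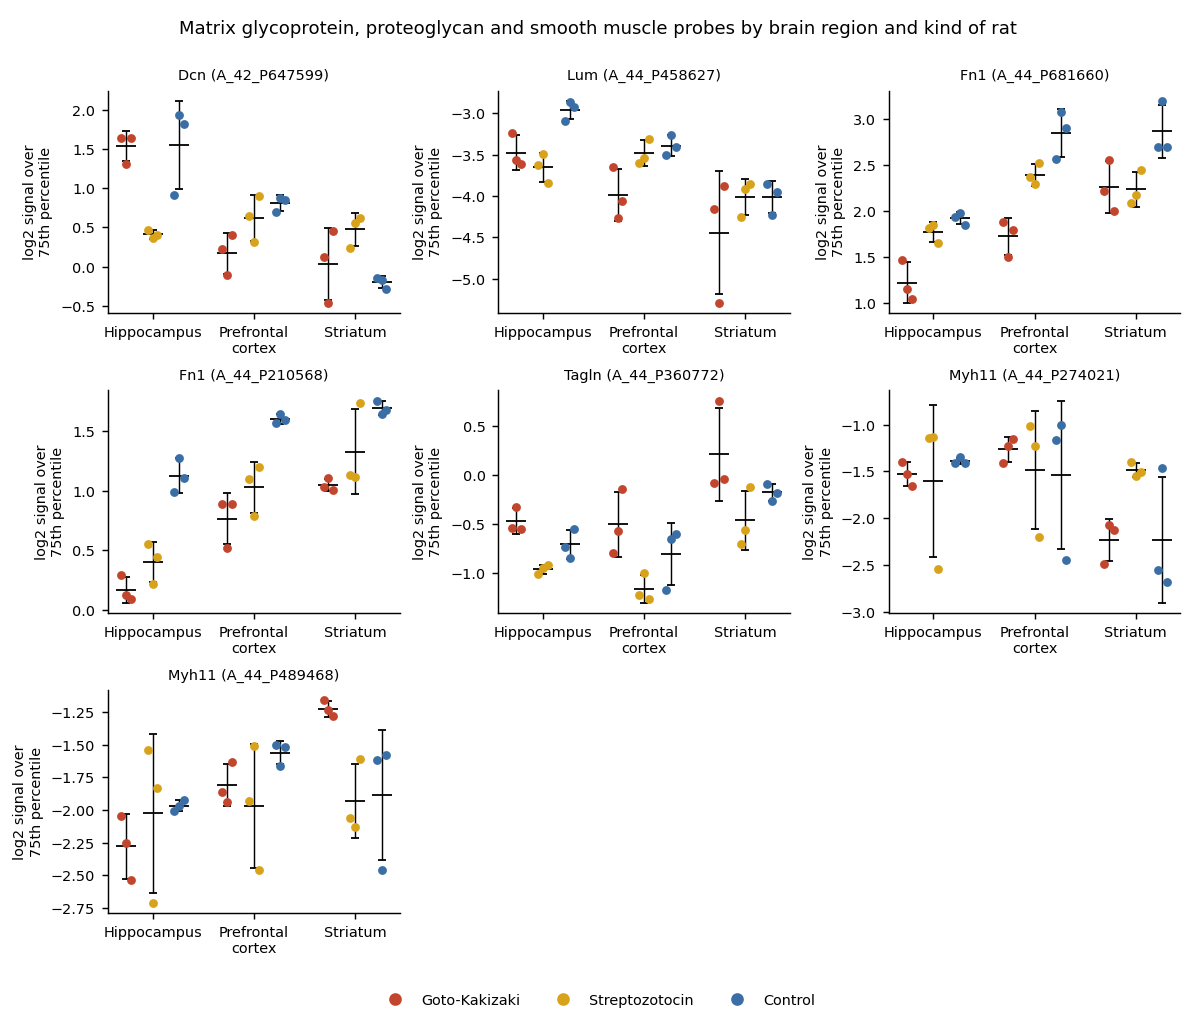
The Dcn, Lum, Fn1, Tagln and Myh11 probes, with log2 signal over the array's 75th percentile on each y axis and regions on the x axis, for Goto-Kakizaki (red), streptozotocin (yellow) and control rats (blue), points being pools and bars the mean and SD. Dcn of the streptozotocin hippocampus lies between 0.36 and 0.47, below all other hippocampal pools, and both Fn1 panels show the Goto-Kakizaki pools below the controls.

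Transgelin, an actin-binding protein of smooth muscle, was higher in Goto-Kakizaki than in streptozotocin rats in prefrontal cortex and striatum. Hippocampal Tagln had -0.54, -0.32 and -0.55 in Goto-Kakizaki rats, -1.01, -0.95 and -0.92 in streptozotocin rats, and -0.73, -0.84 and -0.55 in controls. In prefrontal cortex the pools stood at -0.79, -0.57 and -0.14 in Goto-Kakizaki rats, -1.22, -1.00 and -1.26 in streptozotocin rats, and -1.17, -0.65 and -0.60 in controls. Striatum had -0.08, 0.76 and -0.04 in Goto-Kakizaki rats, -0.70, -0.56 and -0.12 in streptozotocin rats, and -0.09, -0.26 and -0.18 in controls. The Goto-Kakizaki and streptozotocin pools did not overlap in any region, with the controls between or among them. Of the 13 probes, 2 were higher without overlap in Goto-Kakizaki than in streptozotocin hippocampus (17.8% of all probes), 1 in prefrontal cortex (16.7%) and 5 in striatum (21.1%).

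The differences of Goto-Kakizaki from streptozotocin rats were 0.49 in hippocampus (adjusted p = 0.16), 0.66 in prefrontal cortex (adjusted p = 0.034) and 0.67 in striatum (adjusted p = 0.033, SE 0.21 in each). All were under 2-fold and on different slide sets, and by the adjusted p alone Tagln was the single probe of the 13 that was higher in prefrontal cortex (7.42% of all probes) and in striatum (8.34%). None of the 13 was called by limma in prefrontal cortex (3.53% of all probes) or striatum (4.94%), with 2 and 5 at an unadjusted p under 0.05. Against controls Tagln differed by 0.24, 0.30 and 0.39 in Goto-Kakizaki rats (adjusted p = 0.69, 0.45 and 0.23) and by -0.25, -0.36 and -0.29 in streptozotocin rats (adjusted p = 0.67, 0.45 and 0.46) in hippocampus, prefrontal cortex and striatum. In control rats it was higher in striatum than in prefrontal cortex by 0.63 (adjusted p = 0.029), within a slide set and under 2-fold.

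The smooth muscle myosin heavy chain Myh11 had 2 probes that did not run together. Probe A_44_P489468 gave striatal values of -1.16, -1.23 and -1.28 in Goto-Kakizaki rats, -2.06, -2.13 and -1.61 in streptozotocin rats, and -1.62, -2.46 and -1.58 in controls, a Goto-Kakizaki difference of 0.66 (adjusted p = 0.1) with no overlap. In hippocampus it had -2.05, -2.25 and -2.54 in Goto-Kakizaki rats, -1.54, -2.71 and -1.83 in streptozotocin rats, and -2.01, -1.97 and -1.92 in controls. In prefrontal cortex it had -1.86, -1.94 and -1.63 in Goto-Kakizaki rats, -1.93, -1.51 and -2.46 in streptozotocin rats, and -1.50, -1.66 and -1.52 in controls. None of its differences between animals was called.

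Probe A_44_P274021 followed the array slide. In striatum it had -2.49, -2.07 and -2.13 in Goto-Kakizaki rats, -1.40, -1.55 and -1.51 in streptozotocin rats, and -2.55, -1.46 and -2.68 in controls. In hippocampus it had -1.40, -1.53 and -1.66 in Goto-Kakizaki rats, -1.14, -1.13 and -2.54 in streptozotocin rats, and -1.41, -1.35 and -1.41 in controls. In prefrontal cortex it had -1.41, -1.23 and -1.15 in Goto-Kakizaki rats, -1.02, -1.23 and -2.20 in streptozotocin rats, and -1.16, -1.00 and -2.44 in controls. It stood between -2.68 and -2.07 on all 8 arrays of slides 4 and 6 and between -1.66 and -1.00 on the 19 others, as the plot of both Myh11 probes by slide shows. Of the 32078 probes tested, 859 (2.68%) were lower on every array of these 2 slides than on every other array, and 1081 were higher. A_44_P489468 ran between -2.46 and -1.16 on slides 4 and 6 and between -2.71 and -1.50 elsewhere. The 2 probes correlated at -0.31 over the 27 pools. A_44_P274021 is kept in the counts over the 13 probes. A covariate for slides 4 and 6, added after the data were seen, left every call of the 13 probes against controls as it was except that of Col1a2 A_43_P12783 (-1.22, adjusted p = 0.054).

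**Figure D4:**
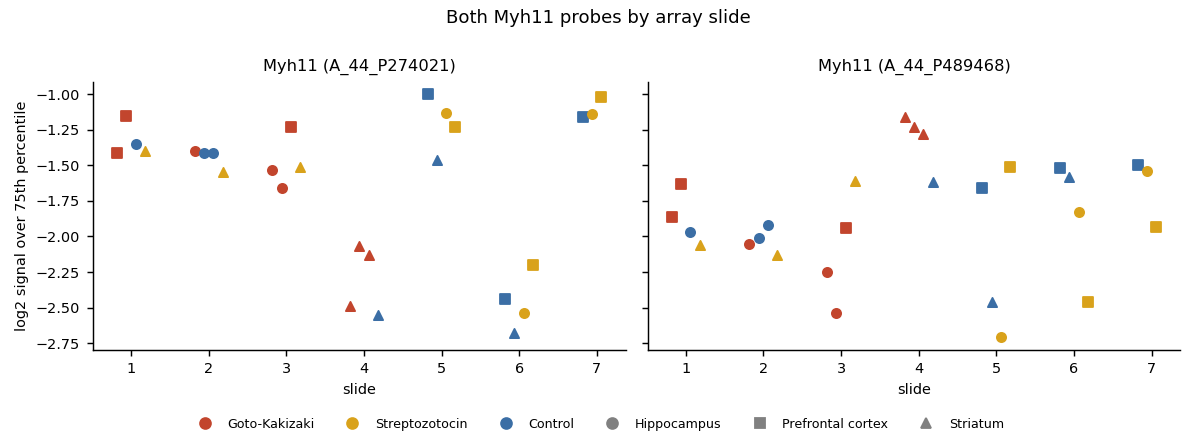
Log2 signal over the array's 75th percentile (y axis) of both Myh11 probes by array slide (x axis), each point an array, with colours for the kind of rat and marker shapes for the region. A_44_P274021 lies at or below -2.07 on slides 4 and 6 and at or above -1.66 on the others, and A_44_P489468 overlaps between the slides.

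Other smooth muscle and pericyte genes, 20 of 21 with a probe, were compared in the same way. Of 18 tested, 1 was called lower in each region in Goto-Kakizaki against control rats (1.92%, 2.49% and 3.09% of all probes called in either direction in hippocampus, prefrontal cortex and striatum) and 0 by limma in streptozotocin rats, where 3, 3 and 6 had an unadjusted p under 0.05 in hippocampus, prefrontal cortex and striatum. The called gene was Actg2, the smooth muscle actin of the gut wall and a close copy of other actin genes, so that its signal may hold RNA of more than 1 of them. Actg2 had 1.24, 1.29 and 1.24 in Goto-Kakizaki hippocampus, 3.25, 3.41 and 3.27 in that of streptozotocin rats, and 3.05, 3.02 and 2.62 in controls. In prefrontal cortex it had 0.89, 1.18 and 1.38 in Goto-Kakizaki rats, 2.93, 2.99 and 2.98 in streptozotocin rats, and 2.84, 2.65 and 3.02 in controls. In striatum it had 1.28, 1.74 and 1.13 in Goto-Kakizaki rats, 2.80, 2.61 and 2.76 in streptozotocin rats, and 3.03, 3.73 and 3.09 in controls. No Goto-Kakizaki pool reached 2, and every Wistar pool was above it. The differences from controls were -1.64, -1.69 and -1.90 (adjusted p = 2.2e-06, 1.3e-06 and 2.4e-07) in hippocampus, prefrontal cortex and striatum.

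Between regions of control rats, 3 of the 20 genes of this list with a probe were called higher in striatum than in prefrontal cortex, within a slide set. Over all probes, 3.96% were called higher there. They were Anpep, a peptidase of pericytes, by 2.62 (adjusted p = 7.2e-08), Ppp1r14a, an inhibitor of myosin phosphatase, by 2.32 (adjusted p = 1.6e-07, 2 striatal pools), and the adhesion molecule Mcam by 1.42 (adjusted p = 4.3e-08). Their list summed to 88.5 to 140 in Goto-Kakizaki, 86.8 to 102 in streptozotocin and 90.1 to 126 in control striatum, and to 50.8 to 73.7 over the groups of prefrontal cortex, with Cnn1 and Itga8 above background on no array. Endothelial markers, all 12 with a probe, summed to 44.5 to 73.2 in striatum, 36.3 to 45.3 in prefrontal cortex and 27.2 to 31.4 in hippocampus. Of the transcription factors of smooth muscle genes, 6 of 8 had a probe, and 0 were called against controls in either model by limma, with up to 3 at an unadjusted p under 0.05. Srf, the factor that binds the promoters of contractile genes, was higher in control striatum than in control hippocampus (1.15, adjusted p = 0.00033), as was Klf4 (1.01, adjusted p = 2.1e-05), while the Srf partner Mkl1 was lower (-1.03, adjusted p = 1.7e-05). Tead1 was higher in Goto-Kakizaki than in streptozotocin striatum (1.39, adjusted p = 0.0014).

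Within the set of 13 probes, 4 collagen probes ran closely together over the pools. Col1a1 A_44_P238421 correlated at 0.96 (26 pools) and 0.95 with the 2 Col1a2 probes and at 0.91 with Col3a1. With group means taken off, these values were 0.89, 0.89 and 0.81. The 2 Fn1 probes correlated at 0.89 and, with group means off, at 0.50. Dcn correlated with Col1a1 A_44_P238421 at -0.10, and Tagln with Lum at -0.65. The points share arrays, their scaling and dissection, and the values are descriptions.

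**Figure D5:**
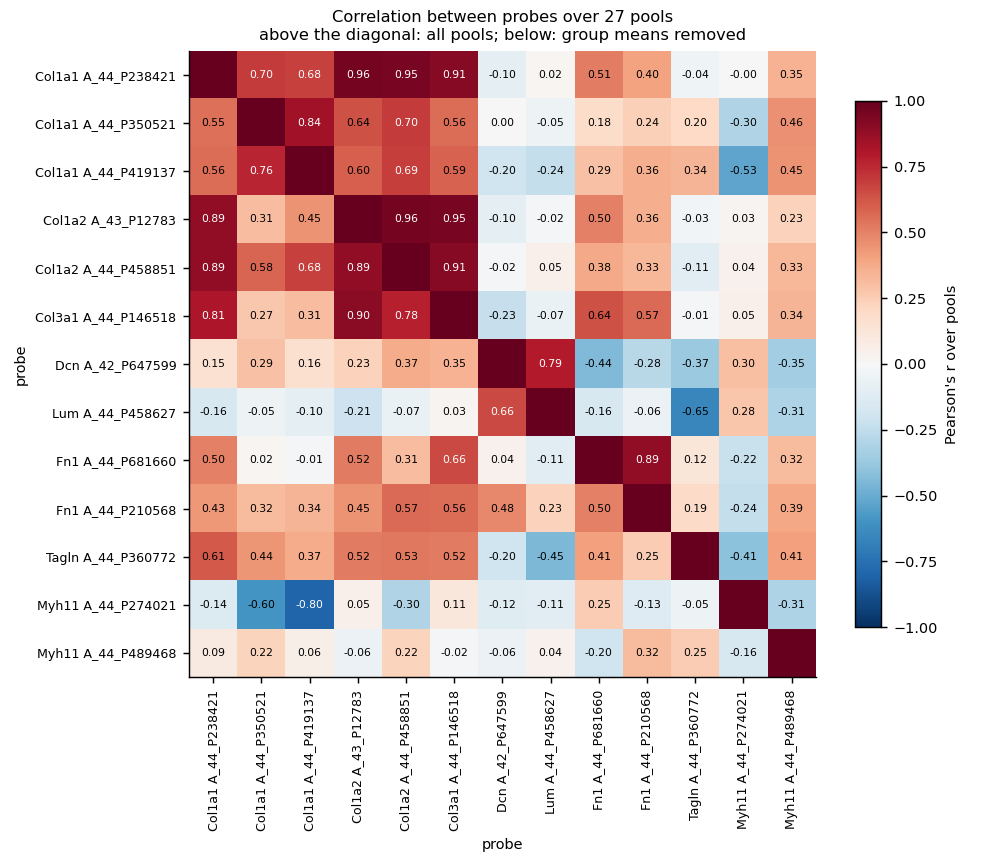
Pearson's r between the 13 probes over the 27 pools, with all pools above the diagonal and group means taken off below it, in colour from -1 (blue) to 1 (red). The block of Col1a1 A_44_P238421, both Col1a2 probes and Col3a1 holds values of 0.91 to 0.96 above the diagonal, and Dcn and Lum form a pair at 0.79.

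Among the genes whose deviations from the group means were most like the mean of the matrix genes (the brightest probe of each), of 15587 probes compared over 27 pools, were Foxc2 (r = 0.84), Ptgds (0.83), Cela3b (0.81), Anxa2 (0.79), Tmem106a (0.79), Nupr1 (0.78) and Aldh1a2 (0.77). Foxc2 is a transcription factor of mesenchyme, and Ptgds, the prostaglandin D synthase, and Aldh1a2 are made in the leptomeninges. For the smooth muscle genes they were Pbp2 (0.87), Card10 (0.87), Aplnr (0.85), Gtf2ird2 (0.85), Map1s (0.84), Pax2 (0.84), Pias4 (0.83) and Slc2a4 (0.82). That profile holds the Myh11 probe that followed the slides.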

How the data were processed

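Total RNA of 27 pools was hybridised to Agilent rat arrays in one colour and read with Agilent Feature Extraction 9.1. The intensity values used are the processed signals of that software, as deposited by the authors, which are background-subtracted and on a linear scale, and the authors' value table held the same numbers (largest relative difference 0). Members and gene lists were chosen with earlier results of these data known.

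Control spots and 2635 values flagged as outlier spots were left out, each probe had 1 spot, and log2 signals were scaled to each array's 75th percentile. Probes well above background on 2 of 3 arrays of a group compared were tested (32078 in any region) with limma 3.58.1 in R 4.3.3: group means of all 9 groups with a shared variance (18 residual degrees of freedom), contrasts, eBayes, and Benjamini-Hochberg adjustment within each comparison. A change was called at adjusted p under 0.05 and 2-fold. The median SD of a probe within a group was 0.093 to 0.294 (log2). Tables and figures were made with Python 3.11.15, pandas 2.3.3, numpy 2.4.6 and matplotlib 3.10.9. The fit was tested on simulated data.

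All member probes were named, and of each gene list up to 4 genes with the smallest p among those called in any comparison. Other list genes are said to be picked after their values were seen. Of the genes most like the members in pattern, 1 is not reported here. Nothing beyond the pool number ties equal numbers together, and their deviations correlated in all 3 pairs in a single comparison, streptozotocin against control prefrontal cortex (0.494, 0.475 and 0.717), where equal numbers lay on the same slide. The p-values measure the spread between pools.

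Alternatives were the 50th percentile, quantile normalization, the value table, normexp correction of the background (offset 50), no filter or a stricter one on dim probes, outlier spots kept, no fold threshold, each region or each pair of groups fitted alone, array weights, the methods' t-test, the slide as a random block, the replicate block and each pool left out in turn. Added after the data were seen were the slide as a fixed block, slide 6 or slides 4 and 6 left out, single slides, and a covariate for slides 4 and 6.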

Additional observations from a re-analysis of the deposited data

Results flagged for a closer look

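Of the results on these probes, 1 differed between regions by a test of the difference itself. The streptozotocin effect on Dcn (A_42_P647599) was -1.14 in hippocampus and 0.67 in striatum, a difference of -1.81 on the log2 scale (limma, adjusted p = 0.01). Over all probes 0.769% were called for this difference, and none for the 2 differences that involve prefrontal cortex, where streptozotocin and control arrays shared slides. In hippocampus and striatum the streptozotocin and control arrays lay on different slide sets in opposite order, so slide set and treatment cannot be told apart.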

How the results depend on the processing

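Of 354 values of the 15 called changes under the alternatives, 312 kept the call, 41 lost it and 1 turned round: Lum, striatum against hippocampus, had 0.15 under normexp, where the median of all probes was 0.40, against 0.03. The kept calls, here and below, include alternatives that could not lose one. The value table held the same numbers as the main fit, and leaving out the fold threshold only relaxed the rule. For Goto-Kakizaki against control rats 2 probes were called, and 1 under the 50th percentile, normexp, no filter, outlier spots kept, each region alone, the groups compared alone, without slide 6 and with the covariate for slides 4 and 6, 6 under array weights and 7 with no fold threshold. For streptozotocin against control rats 1 was called, and 0 with the groups alone or without slide 6, 2 under array weights and 4 with no fold threshold. Goto-Kakizaki against streptozotocin rats had 1, and 2 under array weights and 5 with no fold threshold. Regions of control rats had 10, and 18 with no fold threshold. Smaller shifts of this count under other settings are not all listed. Striatum against hippocampus, for example, had 2 called probes in the main fit, 1 under normexp and 3 with the covariate for slides 4 and 6. No share of all probes under an alternative is set beside these counts. Effects between regions numbered 4 for Goto-Kakizaki rats under array weights, against 0, and for streptozotocin rats 0 under normexp, with the groups alone or without slide 6 and 2 under array weights, against 1.

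The methods' t-test called 0 after adjustment in each comparison, and before it 1, 0, 1 and 8 for Goto-Kakizaki against control, streptozotocin against control, Goto-Kakizaki against streptozotocin and regions of control rats. It was not run for effects between regions. With each pool left out in turn the counts were 1 to 4, 0 to 1, 1 to 1 and 9 to 12 in that order, and 1 to 1 for the streptozotocin effect between regions. The 4 came without pool 3 of the Goto-Kakizaki prefrontal cortex, and the 0 without control hippocampus pool 2 or 3. With the replicate block, that is with equal pool numbers paired, the counts were 3, 1, 1 and 10, and 0 and 1 for the effects between regions; the block moved no count by over 1.5 times.

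The weakest calls were Col1a2 A_43_P12783 in Goto-Kakizaki prefrontal cortex, kept under 10 of 23 alternatives (-1.78 to -0.83), and Dcn in streptozotocin hippocampus, kept under 18 of 23 (-1.47 to -0.96), while Fn1 A_44_P681660 in Goto-Kakizaki prefrontal cortex was kept under 22 of 23 (-1.26 to -1.00). Each of these comparisons with controls lay across the slide sets, and none of the alternatives could separate the slide set from the kind of rat. With the slide as a fixed block, comparisons across the slide sets could not be fitted. With 3 arrays a group, changes near 2-fold are at the limit of what these data separate, and Lum, at signals of 17.6 to 191.5, is the probe nearest to background.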
